A study of Mus musculus with 12 samples.

Results

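The interferon response genes described here are 41 genes chosen by name, 29 of them typical targets of type I interferon, 9 interferon-induced GTPases and 3 in neither class (Irf1, Tap1 and Cxcl10). Of the 41, 39 had a probe set whose annotation names that gene alone, among 18193 such genes on the array. Isg15 was measured only together with a second gene and Ifi44 by no named probe set. The test was limited to 8338 genes with a log2 signal above 5 on at least 3 of 12 arrays, and 35 members passed: 25 type I-type targets, 8 GTPases, Irf1 and Tap1. Ifit2, Oasl2, Gbp2 and Cxcl10 did not pass and lay between 2.22 and 5.04 on every array.

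The values come from Affymetrix arrays of mouse liver, 1 array per mouse. The study compared deletion of Keap1 with a drug, CDDO-Im, as ways of activating the transcription factor Nrf2. Keap1 is the protein that marks Nrf2 for degradation, and CDDO-Im is a synthetic triterpenoid that blocks this. All mice were 9-week-old C57Bl/6J males in 4 groups of 3. The knockout (CKO) mice were Albumin-Cre:Keap1(flox/-), and the mice called wild type (WT) were Albumin-Cre:Keap1(flox/+), so both genotypes carried Cre driven by the albumin promoter of hepatocytes and an allele with flox sites. Cells in which that promoter is silent were not targeted, although they share the flox/- or flox/+ germline genotype. Each mouse was gavaged once with 30 µmol/kg CDDO-Im or with the vehicle (10% DMSO and 10% Cremophor-EL in PBS) and killed 6 h later. The labels number the livers 1, 2 and 3 for WT vehicle, 3, 4 and 5 for CKO vehicle, and 2, 3 and 4 for either genotype with CDDO-Im. Nothing in the labels says how the livers were collected beyond this, so p-values measure the spread between these 12 samples.

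Interferons are secreted proteins that set cells into an antiviral state. Type I interferons act through a receptor, the kinases Jak1 and Tyk2, and a complex that holds Stat2 and Irf9 and binds a DNA element called ISRE. Interferon gamma has a receptor of its own and acts mainly through a different element, GAS, and it induces Irf1 and the families of GTPases that attack vacuoles holding bacteria and parasites. These sets of targets overlap widely, and liver expresses many of them at a basal level without infection.

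The labels were checked on Keap1 and on Nqo1, a reductase under Nrf2 control. The Keap1 probe set that was second in brightness read 7.92 to 8.89 in the 6 WT livers and 2.74 to 3.31 in the 6 CKO livers. The brightest one differed less, with 6.58 to 8.08 in WT and 6.15 to 6.51 in CKO livers. Nqo1 read 5.18 to 6.96 in WT vehicle livers and 9.56 to 11.16 in all others. The 6 hepatocyte markers averaged 15.71 to 15.85 in every liver. CKO vehicle replicate 3 stood apart in the acute phase gene Saa2, at 15.90 against 10.63 and 11.66 in the other CKO vehicle livers, and the members that lost their call without it are named.

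Of the members with a RefSeq window, the 2 type I-type targets and 2 GTPases that differed most between the vehicle groups were chosen. Their promoter sequences, which all hold the ISRE core, are shown as examples of the elements described above. Each is 1 window of 300 bases, 250 before and 50 from the start of transcription, from RefSeq on GRCm38.p6, written 5′ to 3′ on the strand of the gene. Capitals mark the ISRE core (TTTC, any 2 bases and TTTC again, or the reverse complement, GAAA, any 2 bases and GAAA) and GAS (TTCNNNGAA). The windows are chr19:34640639-34640938 (+) for Ifit1, chr19:34583279-34583578 (+) for Ifit3, chr11:58214727-58215026 (+) for Irgm2 and chr3:142530086-142530385 (+) for Gbp7.
Ifit1: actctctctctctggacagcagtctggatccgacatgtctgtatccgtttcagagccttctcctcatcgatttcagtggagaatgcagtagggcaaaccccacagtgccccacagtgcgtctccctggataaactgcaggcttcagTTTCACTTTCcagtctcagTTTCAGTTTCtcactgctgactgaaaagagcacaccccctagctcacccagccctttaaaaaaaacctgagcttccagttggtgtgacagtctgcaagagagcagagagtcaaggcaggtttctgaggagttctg
Ifit3: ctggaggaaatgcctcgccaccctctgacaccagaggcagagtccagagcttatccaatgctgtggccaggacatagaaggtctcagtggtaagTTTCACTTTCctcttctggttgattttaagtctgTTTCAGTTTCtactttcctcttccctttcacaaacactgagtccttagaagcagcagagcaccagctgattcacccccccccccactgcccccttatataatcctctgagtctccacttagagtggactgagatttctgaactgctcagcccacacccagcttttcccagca
Irgm2: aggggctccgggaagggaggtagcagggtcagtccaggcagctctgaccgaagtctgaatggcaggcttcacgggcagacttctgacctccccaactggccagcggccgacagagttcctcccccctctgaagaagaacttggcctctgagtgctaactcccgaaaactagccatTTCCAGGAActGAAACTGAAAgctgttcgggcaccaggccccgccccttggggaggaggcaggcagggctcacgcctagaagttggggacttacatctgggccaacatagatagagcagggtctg
Gbp7: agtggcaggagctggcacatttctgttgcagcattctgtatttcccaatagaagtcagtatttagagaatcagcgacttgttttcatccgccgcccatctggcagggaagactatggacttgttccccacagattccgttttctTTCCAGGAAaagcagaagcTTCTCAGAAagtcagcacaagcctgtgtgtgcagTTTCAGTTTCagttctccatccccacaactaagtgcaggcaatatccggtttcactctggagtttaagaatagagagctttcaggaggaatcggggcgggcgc

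The ISRE cores of Ifit1 begin 104 and 85 bases before the start and those of Ifit3 156 and 122 bases before it. Irgm2 has the core on the opposite strand, beginning 64 bases before the start and next to a GAS at 75. Gbp7 has a core at 53 and GAS at 106 and 87 bases before the start. RefSeq windows were at hand for 32 members, and 18 of them (56.2%) held the ISRE core on either strand, against 3.99% of 27025 genes. By class this was 11 of 22 type I-type targets and 6 of 7 GTPases. GAS was in 10 of 32 members (31.2%) against 9.55% of all genes. The core of the antioxidant response element that Nrf2 binds (TGACNNNGC, either strand) was in 7 of 32 members (21.9%) against 14.0% of all genes, and Irgm2 holds 1 match, 228 bases before its start and not in capitals. None of these motifs overlapped in the 4 windows shown, and a match is a description of letters, not of binding.

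Deletion of Keap1 without drug was the comparison with the most calls among the members. In CKO vehicle against WT vehicle livers, 16 of 35 members fell and 0 rose (limma, adjusted p under 0.05 over all genes tested), where 6.51% of all genes passed, 3.26% as lower. The log2 change was below 0 in 35 of 35 members and in 51.4% of all genes. In 30 of 35 members every CKO vehicle liver was below every WT vehicle liver, against 13.3% of all genes. The median log2 change was -1.03 over the members and -0.01 over all genes. In bulk liver, fewer cells of a type and less RNA per cell cannot be told apart. The count of members was 7 without CKO vehicle replicate 3, 10 without CKO vehicle replicate 5, 8 without WT vehicle replicate 1 and 9 without WT vehicle replicate 2, and it was between 12 and 18 in the other fits that left out 1 liver.

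**Figure D1:**
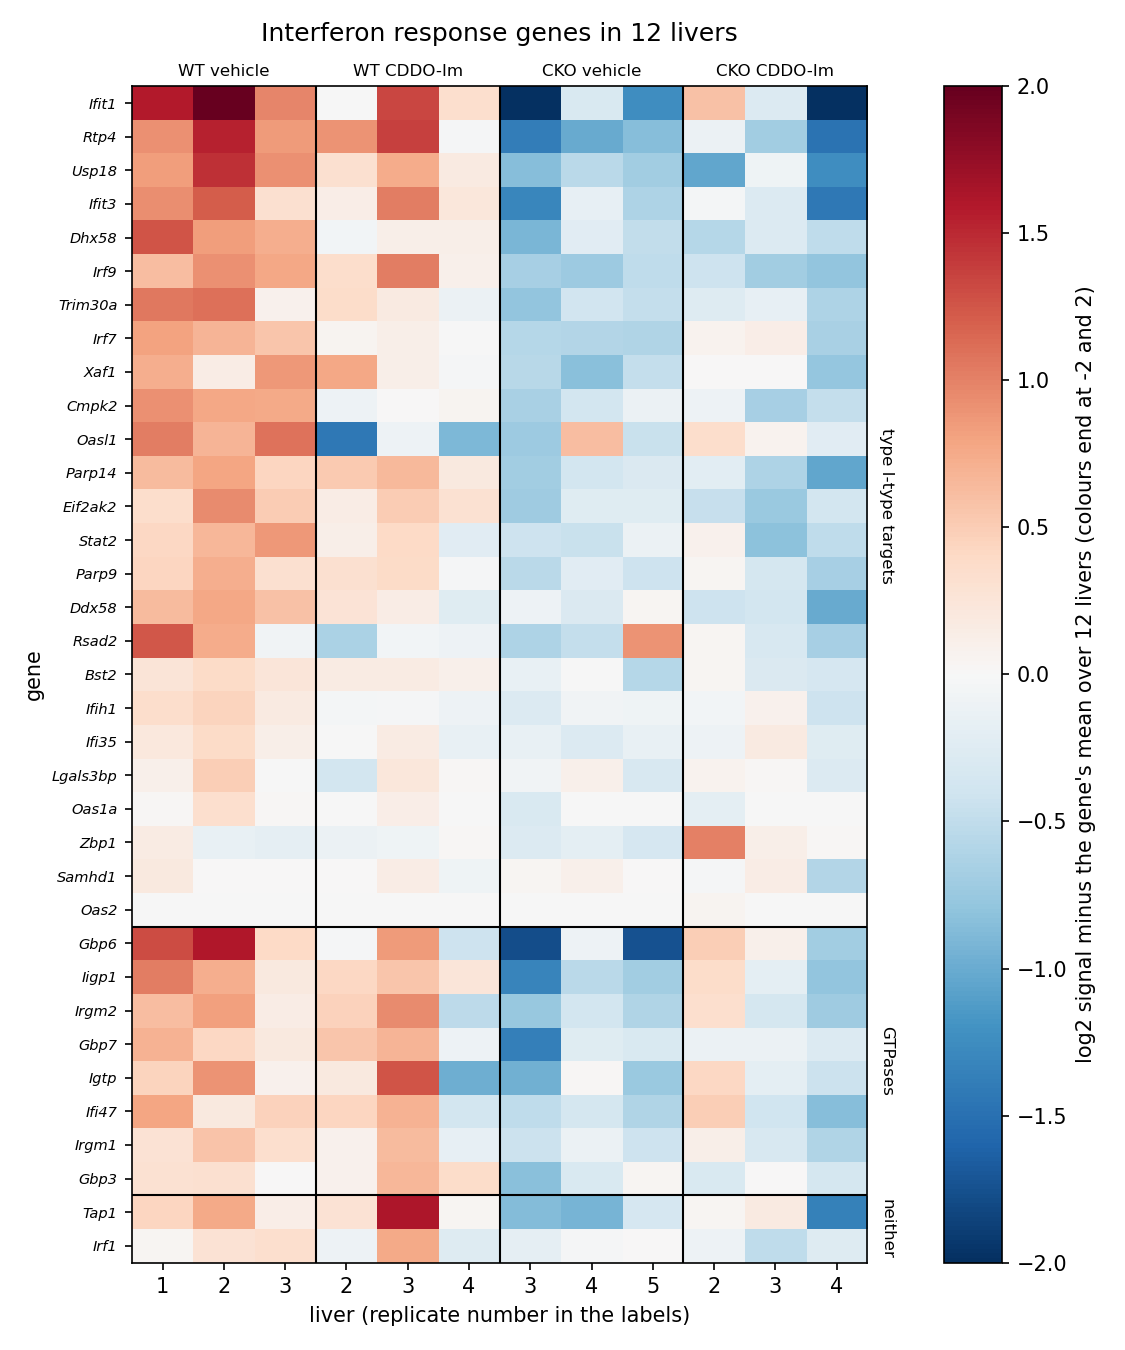
Log2 signal of the 35 members tested (rows, by class) in the 12 livers (columns, by group and replicate number), minus the mean of that gene over all livers; red is above the mean and blue below, with colours ending at -2 and 2. The WT vehicle columns are mostly red and both sets of CKO columns mostly blue, with WT CDDO-Im columns between them for many type I-type targets.

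Of the regulators of the pathway, Irf9, Stat2, Irf7 and Usp18 fell in CKO vehicle livers, and Irf1 did not pass. Irf9, the DNA-binding subunit of the type I complex, read 7.83, 8.12 and 7.99 in WT vehicle livers, 6.55, 6.49 and 6.70 in CKO vehicle, 7.57, 8.24 and 7.32 in WT CDDO-Im and 6.79, 6.51 and 6.42 in CKO CDDO-Im livers (log2 signal, replicates in the order given above). All 6 CKO livers were below all 6 WT livers, and the change under vehicle was -1.40 ± 0.20 (log2 change ± SE, n = 3 against 3; limma, adjusted p = 0.00345), a level 2.64-fold lower. Stat2, its partner, read 8.11, 8.36 and 8.56 in WT vehicle, 7.29, 7.25 and 7.58 in CKO vehicle, 7.81, 8.10 and 7.48 in WT CDDO-Im and 7.78, 6.88 and 7.19 in CKO CDDO-Im livers. With no overlap between the vehicle groups, Stat2 fell by 0.97 ± 0.23 (limma, adjusted p = 0.0333), a call that was lost without any 1 of the 6 vehicle livers (highest adjusted p 0.111, with CKO vehicle replicate 3 left out).

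Irf7, the factor that amplifies interferon production, had the narrowest vehicle groups among these regulators. It read 9.19, 9.07 and 8.95 in WT vehicle, 7.82, 7.81 and 7.79 in CKO vehicle, 8.44, 8.51 and 8.39 in WT CDDO-Im and 8.46, 8.53 and 7.75 in CKO CDDO-Im livers. It fell under vehicle, with a change of -1.26 ± 0.17 (limma, adjusted p = 0.00256), and WT CDDO-Im livers lay between the vehicle groups. Usp18, a protease that removes the ubiquitin-like Isg15 and restrains the receptor, read 10.01, 10.63 and 10.08 in WT vehicle, 8.31, 8.63 and 8.48 in CKO vehicle, 9.49, 9.91 and 9.35 in WT CDDO-Im and 8.13, 9.09 and 7.92 in CKO CDDO-Im livers. All 6 CKO livers were below all 6 WT livers for Usp18 as for Irf9, and the change under vehicle was -1.77 ± 0.29 (limma, adjusted p = 0.0062). Irf1, a factor induced chiefly by interferon gamma, differed least of the regulators: it read 9.58, 9.84 and 9.89 in WT vehicle, 9.37, 9.52 and 9.56 in CKO vehicle, 9.44, 10.31 and 9.29 in WT CDDO-Im and 9.44, 9.04 and 9.29 in CKO CDDO-Im livers. Its vehicle groups did not overlap but differed by only -0.29 ± 0.23 (limma, adjusted p = 0.507).

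**Figure D2:**
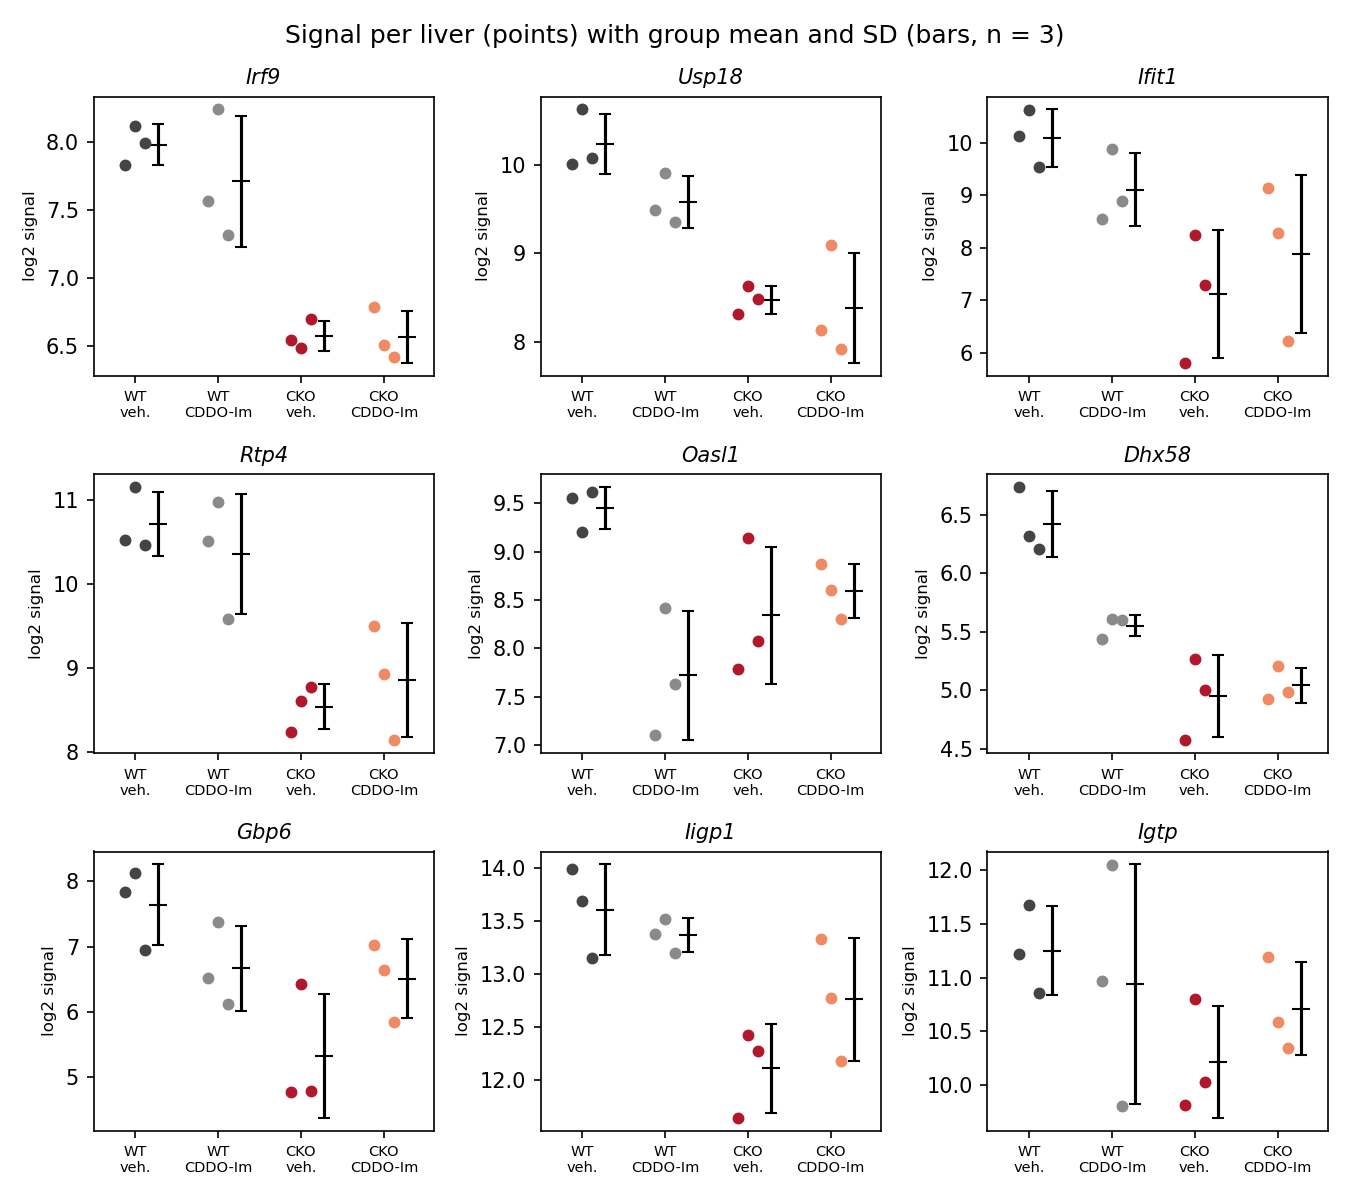
Log2 signal (vertical axes, a separate scale for each gene) of 9 members in the 4 groups; points are livers, and bars give the group mean and SD (n = 3). Irf9, Usp18, Rtp4 and Dhx58 separate all CKO from all WT livers, Oasl1 is lowest on average after CDDO-Im in WT livers, and the GTPase Igtp overlaps between WT CDDO-Im and both CKO groups.

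Of the 25 type I-type targets tested, 14 fell under vehicle, where 3.26% of all genes were called lower. The median log2 change of the class was -1.0. Ifit1, which binds viral RNA that lacks the cap methylation of host RNA, read 10.13, 10.62 and 9.53 in WT vehicle, 5.81, 8.24 and 7.30 in CKO vehicle, 8.54, 9.89 and 8.89 in WT CDDO-Im and 9.14, 8.28 and 6.22 in CKO CDDO-Im livers. It had the largest change of the class, -2.98 ± 0.77 or 7.87-fold lower (limma, adjusted p = 0.0467), and also the widest spread between livers. The call was lost in 9 of 12 fits without 1 liver, with adjusted p up to 0.155 when CKO vehicle replicate 3 was left out. Its neighbour Ifit3, printed above, differed by -1.52 ± 0.42 (limma, adjusted p = 0.0584) with all 6 CKO livers, at 6.07 to 7.47, below all 6 WT livers, at 7.64 to 8.71. Rtp4, a chaperone of membrane receptors with antiviral activity, read 10.53, 11.16 and 10.47 in WT vehicle, 8.24, 8.61 and 8.77 in CKO vehicle, 10.51, 10.98 and 9.59 in WT CDDO-Im and 9.5, 8.93 and 8.14 in CKO CDDO-Im livers. Every CKO liver was below every WT liver, and Rtp4 fell by 2.18 ± 0.39 under vehicle, to a level 4.52-fold lower (limma, adjusted p = 0.0102).

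Of the 3 sensors of viral RNA in the cytoplasm, 2 fell. Dhx58, which encodes the regulatory sensor LGP2, read 6.74, 6.32 and 6.21 in WT vehicle, 4.57, 5.27 and 5.00 in CKO vehicle, 5.44, 5.61 and 5.60 in WT CDDO-Im and 4.92, 5.21 and 4.98 in CKO CDDO-Im livers. It fell by 1.48 ± 0.18 and had the lowest adjusted p of the members, 0.00143 (limma). Ddx58, the sensor RIG-I, fell by 0.78 ± 0.18 (limma, adjusted p = 0.0327), a call lost without any 1 of the 6 vehicle livers (adjusted p up to 0.0952). Ifih1, the sensor MDA5, differed by -0.47 ± 0.13, just outside the threshold (limma, adjusted p = 0.0523).

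Of the effectors, Trim30a, a mouse TRIM protein, read 8.20, 8.25 and 7.24 in WT vehicle, 6.35, 6.77 and 6.67 in CKO vehicle, 7.51, 7.33 and 7.03 in WT CDDO-Im and 6.89, 6.99 and 6.53 in CKO CDDO-Im livers. Xaf1, a partner of the apoptosis inhibitor XIAP, read 8.30, 7.72 and 8.44 in WT vehicle, 7.02, 6.74 and 7.10 in CKO vehicle, 8.35, 7.69 and 7.54 in WT CDDO-Im and 7.57, 7.57 and 6.80 in CKO CDDO-Im livers. They fell by 1.30 ± 0.26 and 1.20 ± 0.28 under vehicle (limma, adjusted p = 0.0153 and 0.0301). The call for Trim30a was lost in 3 and that for Xaf1 in 5 of 12 fits without 1 liver, with adjusted p up to 0.0686 and 0.0951. For Trim30a these were the fits without WT vehicle replicate 1, WT vehicle replicate 2 or CKO vehicle replicate 3, and for Xaf1 those without any 1 vehicle liver but WT vehicle replicate 2. Cmpk2, a mitochondrial nucleotide kinase, read 5.25, 5.11 and 5.09 in WT vehicle, 3.69, 3.98 and 4.22 in CKO vehicle, 4.24, 4.34 and 4.39 in WT CDDO-Im and 4.24, 3.67 and 3.86 in CKO CDDO-Im livers. It fell by 1.18 ± 0.16 (limma, adjusted p = 0.00215), but it was tested only because the WT vehicle livers were above the filter, so it had to differ. Without Cmpk2 and without Oas1a and Oas2, whose values repeat within 0.001 on at least 6 arrays, 15 of 32 members fell. Of these 32, the change was below 0 in 32, and the vehicle groups did not overlap in 28.

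Other type I-type targets that fell, named after their values were seen, were Parp14 and Parp9, which belong to the ADP-ribosyltransferases, and Eif2ak2, the RNA-activated kinase PKR. Parp14 fell by 1.07 ± 0.20, Eif2ak2 by 1.0 ± 0.18 and Parp9 by 0.89 ± 0.19 (limma, adjusted p = 0.0131, 0.0107 and 0.019). Without CKO vehicle replicate 3, Parp14 and Parp9 were no longer called (adjusted p = 0.0586 and 0.0801). Parp9 was also lost when WT vehicle replicate 1, WT vehicle replicate 2 or CKO vehicle replicate 5 was left out. Of the 14 calls of the class, those of Irf7, Irf9, Usp18, Rtp4, Dhx58 and Eif2ak2 were kept in each of the 12 fits without 1 liver. So was that of Cmpk2, which the filter had let in through WT vehicle alone.

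The other 11 type I-type targets tested did not pass, with log2 changes from -1.52 (Ifit3) to 0. Oasl1, which in mice restrains translation of Irf7, read 9.55, 9.20 and 9.61 in WT vehicle and 7.79, 9.14 and 8.08 in CKO vehicle livers, a difference of -1.11 ± 0.38 (limma, adjusted p = 0.112). Bst2, the virus-tethering protein tetherin, differed by -0.54 ± 0.14 (adjusted p = 0.0524), and all 6 CKO livers, at 10.18 to 10.80, were below all 6 WT livers, at 10.85 to 11.13. Rsad2, the antiviral enzyme viperin, overlapped between the groups, since CKO vehicle replicate 5 read 8.74 against 7.23 and 7.37 in the others. The smallest change of the class was that of Oas2, an oligoadenylate synthetase, which read 5.92 in all 9 livers of the other groups and 5.98, 5.92 and 5.91 in CKO CDDO-Im livers.

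Under vehicle the GTPases had a median log2 change near that of the type I-type targets and larger errors. It was -1.05 against -1.0, and the median SE of a member was 0.32 against 0.19. Of the 8 tested 2 fell, Gbp6 and Iigp1, where 3.26% of all genes were called lower. In 7 of 8 the vehicle groups did not overlap, lower in CKO, against 13.3% of all genes. Of the type I-type targets the groups did not overlap in 21 of 25, and whether the classes differ in the share called was not tested. Without CKO vehicle replicate 3 or either of WT vehicle replicates 1 and 2, 0 GTPases were called, and without CKO vehicle replicate 5 only Iigp1. With no filter on low signals, 0 of the 9 GTPases measured were called (limma, lowest adjusted p = 0.088).

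Gbp6, a guanylate-binding protein, read 7.84, 8.13 and 6.94 in WT vehicle, 4.77, 6.43 and 4.79 in CKO vehicle, 6.52, 7.38 and 6.12 in WT CDDO-Im and 7.03, 6.64 and 5.84 in CKO CDDO-Im livers. Iigp1, an effector of the immunity-related GTPases that coats parasite vacuoles, read 13.99, 13.69 and 13.15 in WT vehicle, 11.64, 12.42 and 12.27 in CKO vehicle, 13.38, 13.52 and 13.20 in WT CDDO-Im and 13.33, 12.77 and 12.18 in CKO CDDO-Im livers. Gbp6 fell by 2.30 ± 0.52 on the log2 scale (4.94-fold lower) and Iigp1 by 1.5 ± 0.31 (2.83-fold lower) (limma, adjusted p = 0.0285 and 0.0182). Leaving out CKO vehicle replicate 3 gave an adjusted p of 0.108 for Gbp6 and 0.0754 for Iigp1.

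The other guanylate-binding proteins tested, Gbp7 and Gbp3, did not pass. Gbp7, printed above, read 7.69, 7.40 and 7.19 in WT vehicle, 5.62, 6.75 and 6.69 in CKO vehicle, 7.54, 7.67 and 6.89 in WT CDDO-Im and 6.87, 6.87 and 6.71 in CKO CDDO-Im livers. It was the only GTPase with all 6 CKO livers below all 6 WT livers, and its change under vehicle was -1.07 ± 0.29 (limma, adjusted p = 0.0582). Gbp3 had the smallest change of the class: it read 5.26, 5.28 and 4.96 in WT vehicle, 4.12, 4.65 and 4.99 in CKO vehicle, 5.04, 5.61 and 5.32 in WT CDDO-Im and 4.64, 4.96 and 4.60 in CKO CDDO-Im livers. For Gbp3 the vehicle groups overlapped, with a difference of -0.57 ± 0.22 (limma, adjusted p = 0.149). Gbp3 passed the filter through WT livers alone, so a lower level in CKO livers was favoured.

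Irgm1, Irgm2 and Igtp are the regulatory members of the immunity-related GTPases, which keep the effectors off the membranes of the host. Irgm1 read 9.81, 10.10 and 9.86 in WT vehicle, 9.10, 9.41 and 9.11 in CKO vehicle, 9.61, 10.15 and 9.36 in WT CDDO-Im and 9.64, 9.20 and 8.92 in CKO CDDO-Im livers. Irgm2 read 9.89, 10.09 and 9.42 in WT vehicle, 8.51, 8.90 and 8.68 in CKO vehicle, 9.73, 10.22 and 8.75 in WT CDDO-Im and 9.61, 8.92 and 8.57 in CKO CDDO-Im livers. For both genes the vehicle groups did not overlap, and the drug groups did. Igtp read 11.22, 11.67 and 10.86 in WT vehicle, 9.82, 10.80 and 10.03 in CKO vehicle, 10.97, 12.04 and 9.81 in WT CDDO-Im and 11.19, 10.59 and 10.35 in CKO CDDO-Im livers. Ifi47, a further member of the family, read 10.79, 10.20 and 10.47 in WT vehicle, 9.50, 9.66 and 9.41 in CKO vehicle, 10.44, 10.70 and 9.64 in WT CDDO-Im and 10.50, 9.61 and 9.16 in CKO CDDO-Im livers. Of these 4 genes Igtp varied most within a group, with WT CDDO-Im replicates 3 and 4 the highest and the lowest of all 12 livers. These 4 genes differed under vehicle by -0.72 ± 0.22 for Irgm1, -1.10 ± 0.36 for Irgm2, -1.03 ± 0.49 for Igtp and -0.96 ± 0.34 for Ifi47, with adjusted p from 0.0815 to 0.252 (limma). Tap1, the peptide transporter of antigen presentation, lay in the same range at -1.16 ± 0.46 (adjusted p = 0.171).

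**Figure D3:**
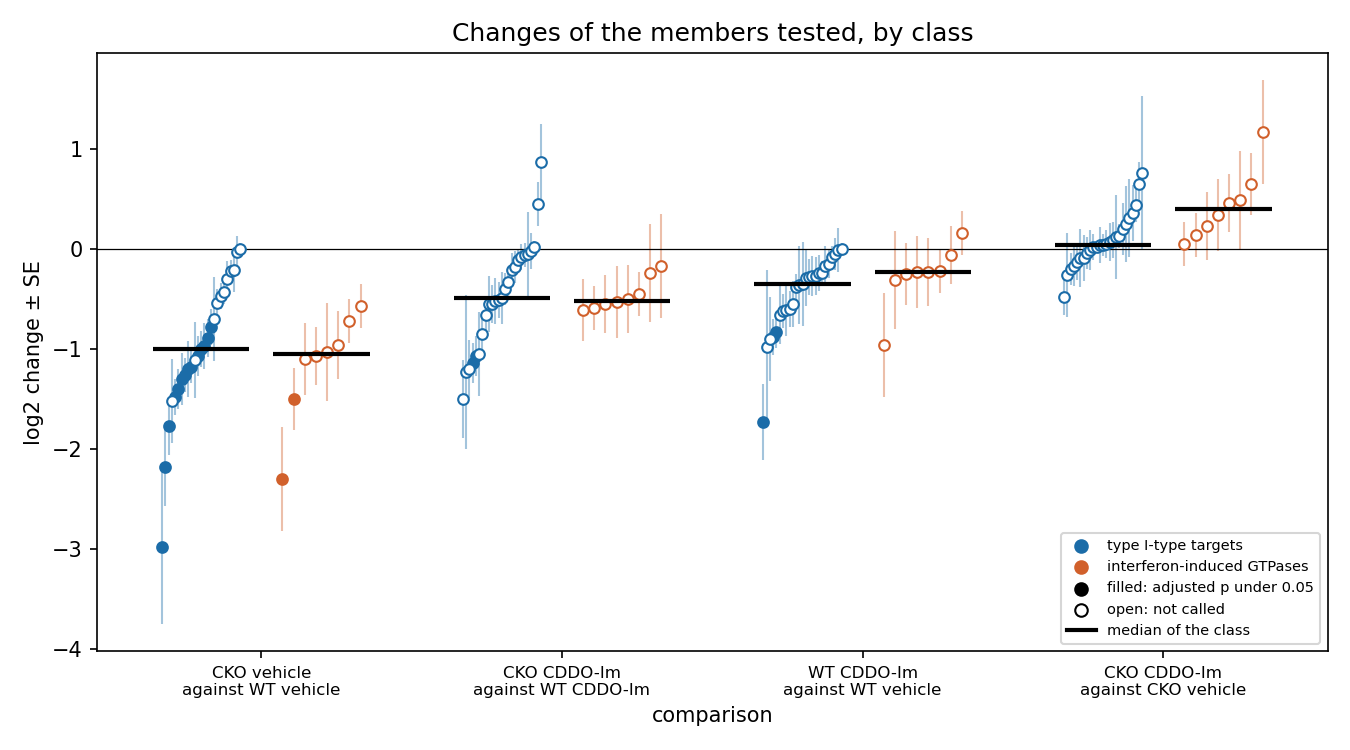
Log2 change ± SE (vertical axis) of each type I-type target (blue, 25) and each GTPase (orange, 8) in the 4 comparisons between groups; filled points passed an adjusted p of 0.05, and black bars are the class medians. The medians lie together near -1 for deletion under vehicle and near -0.5 for deletion under CDDO-Im, and after CDDO-Im in CKO livers the GTPase median is 0.40 and the type I-type median 0.04.

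CDDO-Im in WT livers gave few calls among the members at 6 h. Of 35 members 3 fell, all type I-type targets and no GTPase, where 3.65% of all genes passed, 1.76% as lower. The log2 change was below 0 in 32 of 35 members and in 4593 of 8338 genes. Oasl1, at 9.55, 9.20 and 9.61 with vehicle and 7.10, 8.42 and 7.63 with drug, fell by 1.73 ± 0.38, to a level 3.33-fold lower (limma, adjusted p = 0.0348), with no overlap. Dhx58 fell by 0.88 ± 0.18 and Cmpk2 by 0.83 ± 0.16 (limma, adjusted p = 0.0294 and 0.0204), with the filter again letting Cmpk2 in through WT vehicle alone. In Oasl1 the WT CDDO-Im mean was the lowest of the 4 groups, and CKO CDDO-Im livers read 8.87, 8.60 and 8.30. The call for Oasl1 was lost in 6 of 12 fits without 1 liver, those without WT vehicle replicate 3 or CKO CDDO-Im replicate 3 among them (adjusted p up to 0.111). The count of members was 0 without WT vehicle replicate 1 or 2 or without WT CDDO-Im replicate 2 or 4, and 1 without WT CDDO-Im replicate 3.

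The median log2 change with CDDO-Im in WT livers was -0.35 for the type I-type targets, -0.23 for the GTPases and -0.02 for all genes. The groups did not overlap, lower with drug, in 9 of 25 type I-type targets and 0 of 8 GTPases, against 13.1% of all genes. Irf7 was 1 of the 9, at -0.62 ± 0.17 (limma, adjusted p = 0.0792), and so were Usp18 at -0.66 ± 0.29 (adjusted p = 0.242) and Stat2 at -0.55 ± 0.23 (adjusted p = 0.225). WT CDDO-Im replicate 4 set the sign of the GTPase median, which was 0.12 without it.

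CDDO-Im in CKO livers changed no member at the threshold: 0 of 35 were called, and 0.0% of all genes. At an unadjusted p under 0.05 (limma) there were 790 genes, or 9.47%, and the members among these were Irf7, Gbp6, Ddx58 and Zbp1. The lowest adjusted p among the members was 0.448 (limma), for Zbp1. The median log2 change was 0.04 for the type I-type targets and 0.40 for the GTPases. All 8 GTPases were above 0, from 0.05 for Irgm1 to 1.17 ± 0.52 for Gbp6 (limma, adjusted p = 0.524), as were 16 of 25 type I-type targets and 43.7% of all genes. In 8 of 8 GTPases the groups overlapped, and in 14.6% of all genes they did not.

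Under CDDO-Im, Irf9 and Parp14 were the members called between genotypes. In CKO CDDO-Im against WT CDDO-Im livers, 2 of 35 members fell, both type I-type, where 1.54% of all genes passed, 0.792% as lower. Irf9 was lower by a log2 change of -1.14 ± 0.20 (2.2-fold) and Parp14 by -1.07 ± 0.20 (2.10-fold), and neither overlapped between the groups (limma, adjusted p = 0.0236 and 0.0341). The call for Irf9 was lost without WT CDDO-Im replicate 2 or any 1 CKO CDDO-Im liver (adjusted p up to 0.0857). That for Parp14 was lost without WT vehicle replicate 1, WT CDDO-Im replicate 2 or 3, or CKO CDDO-Im replicate 3 or 4 (up to 0.136). Usp18 differed by -1.20 ± 0.29 (adjusted p = 0.0724), Rtp4 by -1.5 ± 0.39 (adjusted p = 0.0895) and Eif2ak2 by -0.85 ± 0.18 (adjusted p = 0.055). The class medians were -0.49 for the type I-type targets and -0.52 for the GTPases. The groups did not overlap, lower in CKO livers, in 11 of 25 and 2 of 8 members, against 12.2% of all genes. In the other direction, 1 type I-type target, Zbp1, was higher in CKO livers with no overlap.

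The 2 comparisons of genotype share no arrays. The log2 change was below 0 in both for 32 of 35 members (91.4%) and for 33.4% of all genes. The drug comparisons in WT and in CKO livers each share their vehicle livers with the comparison of CKO vehicle against WT vehicle. High values in WT vehicle and low values in CKO vehicle livers therefore favour a drug change below 0 in WT and above 0 in CKO livers. This pattern was seen in 22 of 35 members (62.9%), 7 of them among the 8 GTPases, and in 20.4% of all genes. The difference between the drug effects, the interaction of genotype and drug, passed for 0 of 35 members and 0.276% of all genes. At an unadjusted p under 0.05 (limma) there were 858 genes (10.3%). The members among these were Irf7, Oasl1, Dhx58, Cmpk2, Gbp6, Ifih1 and Trim30a. The lowest adjusted p of the members was that of Irf7, whose interaction was 1.06 ± 0.24 on the log2 scale (limma, adjusted p = 0.149). Without CKO CDDO-Im replicate 4, which read 7.75 against 8.46 and 8.53, it was 1.31 and passed (adjusted p = 0.00591).

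By group means, WT vehicle was highest in 31 of 35 members, against 32.2% of all genes. CKO vehicle was lowest in 23 of 35, 8 of 8 GTPases among them, against 21.7% of all genes, and CKO CDDO-Im was lowest in 10, 9 of them type I-type, against 26.2%. Both CKO means were below both WT means in 30 of 35 members, against 23.8% of all genes. All 6 CKO livers were below all 6 WT livers in 11 members, against 2.48% of all genes. Besides Irf9, Usp18, Rtp4, Dhx58, Cmpk2, Trim30a, Ifit3, Bst2 and Gbp7 these were Parp14 and Eif2ak2. Cmpk2 and Gbp3 passed the filter through WT livers alone, so CKO means below WT means were favoured for them in these counts. Neighbours in the order of the 4 groups were often not separated: for Irf9, Usp18 and Rtp4 the 2 CKO groups overlapped.

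Livers of 1 group differed from each other in the members as a set, and more so in the GTPases. In the WT CDDO-Im group, replicate 3 was the highest in 8 of 8 GTPases and 20 of 25 type I-type targets, by a median of 0.66 and 0.24 log2 over the mean of the other 2 livers. Replicate 4 was lowest in 7 of 8 GTPases. In the CKO CDDO-Im group, replicate 2 was highest in 6 of 8 GTPases (median difference 0.76) and replicate 4 lowest in 8 of 8 GTPases and 20 of 25 type I-type targets. In the CKO vehicle group, replicate 3 was lowest in 7 of 8 GTPases and 15 of 25 type I-type targets, the liver with the high Saa2. As differences from the WT vehicle mean, the GTPase medians ran from -0.70 to 0.23 within WT CDDO-Im livers and from -1.12 to -0.28 within CKO CDDO-Im livers. Medians of the type I-type targets ran from -0.61 to -0.13 and from -1.29 to -0.60, and those of all genes stayed within -0.06 and 0.04.

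**Figure D4:**
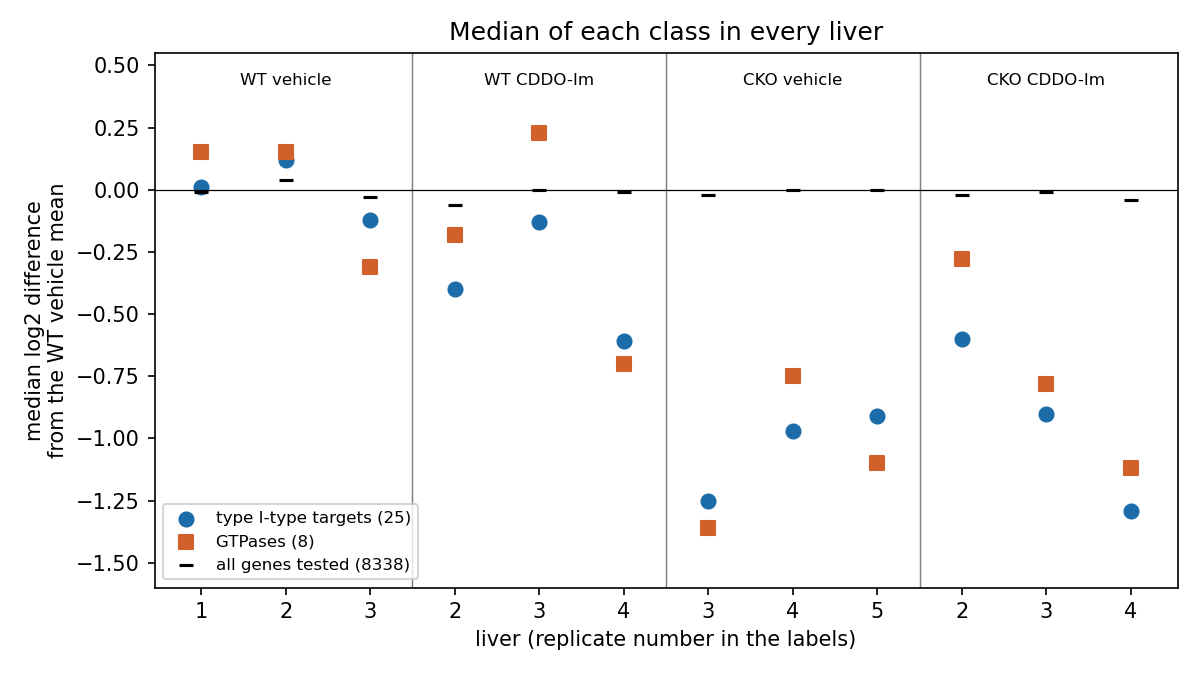
Median log2 difference from the WT vehicle mean (vertical axis) over the type I-type targets (blue circles, 25), the GTPases (orange squares, 8) and all genes tested (black dashes, 8338) in each of the 12 livers. All 6 CKO livers lie at -0.28 or below for both classes, and WT CDDO-Im replicate 3 is above 0 for the GTPases, at 0.23, but not for the type I-type targets, at -0.13.

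H2-Aa and Cd74, genes of antigen presentation, are given as picked examples and were highest in different livers. Of 14 antigen presentation genes tested, 0 were called in CKO vehicle against WT vehicle livers, with a median log2 change of -0.51. H2-Aa, a class II antigen-presenting chain, read 10.99, 10.58 and 8.94 in WT vehicle, 8.85, 9.37 and 8.18 in CKO vehicle, 8.81, 10.80 and 9.29 in WT CDDO-Im and 10.58, 9.60 and 9.47 in CKO CDDO-Im livers, and was highest of all in WT vehicle replicate 1. Its partner Cd74 was highest in WT CDDO-Im replicate 3 (11.36), and among CKO livers both were highest in CKO CDDO-Im replicate 2 (10.79 for Cd74). H2-Aa differed between vehicle groups by -1.37 (limma, adjusted p = 0.23). Of 10 macrophage and Kupffer cell markers tested, 0 fell and Marco rose, by 2.30 ± 0.46, in CKO vehicle against WT vehicle livers, a call lost without CKO vehicle replicate 3 (limma, adjusted p = 0.0658). The list means were 7.82 to 8.88 and 8.37 to 8.99 in the WT and CKO vehicle groups, and 8.31 to 8.49 and 8.37 to 8.92 in the corresponding drug groups. Of 7 endothelial markers tested, Lyve1 rose, by 2.24 ± 0.46 with deletion under vehicle and by 2.57 ± 0.46 with CDDO-Im in WT livers. These calls were lost without WT vehicle replicate 2, the first also without WT vehicle replicate 1 or CKO vehicle replicate 5 and the second also without WT CDDO-Im replicate 4 (limma, adjusted p up to 0.0629 and 0.0701), and the list means ran from 7.52 to 8.15 over all livers. The markers of T and NK cells (8 of 8 measured, with Cd3e, Cd8a and Nkg7), of B and plasma cells (4 of 4) and of dendritic cells (5 of 5) were at or below 5 on every array, as were 5 of 6 of neutrophils. The part of cell composition in the changes of the members was not tested.

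Further genes of the pathway were taken from a list of 137 ligands, receptors, kinases, inhibitors, interferon regulatory factors, sensors, targets and antigen presentation genes. Of these, 110 could be read from their own probe set and 69 were tested. In CKO vehicle against WT vehicle livers 6 of the 69 fell and 0 rose, where 3.26% of all genes were called lower. The change was below 0 in 53 of the 69, against 51.4% of all genes, with a median log2 change of -0.19. All 6 were among the 22 further type I-type targets tested: Rnf213, Herc6, Pml, Adar, Helz2 and Ifitm3. Rnf213, a large ubiquitin ligase, fell by 1.23 ± 0.19, Herc6, the ligase that attaches Isg15 in mice, by 1.22 ± 0.31, Pml, the organiser of nuclear bodies, by 0.98 ± 0.17 and Adar, an RNA-editing enzyme, by 0.95 ± 0.17 (limma, adjusted p = 0.0046, 0.0455, 0.00963 and 0.01). The call for Herc6 was lost in 10 of 12 fits without 1 liver, all but those without CKO CDDO-Im replicate 2 or 4 (adjusted p up to 0.140), that for Helz2 without CKO vehicle replicate 3 (adjusted p = 0.0507), and that for Ifitm3 without WT vehicle replicate 1 or CKO vehicle replicate 4 or 5 (up to 0.103). Of the list, 0 genes were called with CDDO-Im in either genotype (limma; up to 2 in WT livers in the fits without 1 liver), and none of the further GTPases could be tested, as the 3 measured were at or below 5 on every array.

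None of the ligand and receptor genes tested was called in a comparison between groups. Among the ligands, Ifna4 and Ifng lay at 2.22 and Ifnb1 at 2.27 on every array, the lower end of the scale, and Ifna1 at 3.28 to 3.82. Ifna2 was the 1 ligand tested and read 8.17 to 8.5, with 8.21 repeated on most arrays. Values of Oas1a and Oas2 repeat in a like way, so little can be read from its level. Of the 4 receptor genes tested, Ifnar1 and Ifnar2, the type I receptor, differed by -0.15 and 0.03 between vehicle groups, and Ifngr1, of the interferon gamma receptor, by -0.15 (limma, adjusted p = 0.74, 0.907 and 0.53). In CKO CDDO-Im against WT CDDO-Im livers 4 of the 69 genes of the list fell, where 0.792% of all genes were called lower: Irf2, a factor that competes with Irf1, by 0.92 ± 0.18, the class I antigen genes H2-D1 and H2-K1 by 0.50 ± 0.09 and 0.43 ± 0.09, and the kinase Jak1 by 0.41 ± 0.07 (limma, adjusted p = 0.0364, 0.0207, 0.0484 and 0.0249). None of these 4 was called without CKO CDDO-Im replicate 4 or any 1 WT CDDO-Im liver, and the largest adjusted p was 0.173, for H2-K1. Without CKO CDDO-Im replicate 2 or 3, 1 gene of the list was called. Irf2 read 8.20, 8.44 and 8.28 in WT CDDO-Im against 7.77, 7.31 and 7.74 in WT vehicle livers, above every liver of the other 3 groups.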

How the data were processed

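Liver RNA of 12 mice was hybridised to Affymetrix arrays, 1 per mouse. The authors deposited log2 values, made by GCRMA (version 2.12.1, under R 2.7.0) per the submitters' processing notes. This method models background from probe sequence, normalizes the arrays and summarises probe sets; no source used here gives its settings. Array medians were 2.32 to 2.34, and 16494 to 16776 probe sets per array lay within 1e-06 of the lowest value, 2.217, so changes near that floor depend on the background model and a linear fold is printed only if neither group mean was under 5. With 3 arrays a group, their number limits the precision.

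Of 45101 probe sets, 34945 name 1 gene, 932 several and 9160 none, and 64 are controls; 34741 matched RefSeq by Entrez ID. Each gene was read from the probe set with the highest mean. Genes above 5 on at least 3 arrays were fitted with 4 group means in limma 3.58.1 (R 4.3.3), with Benjamini-Hochberg adjustment over 8338 genes and a threshold of 0.05; the fit was tested on simulated data. Values per liver were printed for 5 regulators, for up to 10 type I-type targets called in a comparison between groups, in order of their change, for the GTPases tested and for the smallest change of each class. The members, classes and lists were chosen with earlier results of these data known, so no test is given for a list. Deviations of same-numbered livers in different groups correlated weakly (from -0.17 to 0.15), and no block was used. Whether such livers shared a batch is not known.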

Additional observations from a re-analysis of the deposited data

Results flagged for a closer look

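Zbp1, a sensor of Z-form nucleic acids, was the only member lower in CKO under vehicle and higher under CDDO-Im with no overlap in either. How many of all genes do so was not counted. Under vehicle it read 6.59, 6.27 and 6.25 in WT and 6.15, 6.23 and 6.09 in CKO livers, and under CDDO-Im 6.30, 6.33 and 6.44 in WT and 7.43, 6.54 and 6.45 in CKO livers. The nearest livers of the 2 genotypes were at 6.25 and 6.23 under vehicle and at 6.44 and 6.45 under CDDO-Im. Neither difference passed, at -0.21 ± 0.22 and 0.45 ± 0.22 (limma, adjusted p = 0.608 and 0.325). The interaction was 0.66 ± 0.31 on the log2 scale and did not pass (limma, adjusted p = 0.499).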

How the results depend on the processing

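No called change of a gene named here reversed its direction under the alternatives run. Of the class medians, that of the GTPases with CDDO-Im in WT livers turned from -0.23 to 0.12 without WT CDDO-Im replicate 4, and that of the type I-type targets with CDDO-Im in CKO livers from 0.04 to -0.02 without CKO vehicle replicate 3. In CKO vehicle against WT vehicle livers the count of members called, 16, was 5 without the filter on low signals and 7 to 18 without 1 liver. The medians there were -1.08 to -0.84 for type I-type targets and -1.24 to -0.89 for GTPases without 1 liver, and the type I-type median was -0.70 with all probe sets of a gene averaged. The type I-type count was 7 to 16 and the GTPase count 0 to 3 without 1 liver. For CDDO-Im in WT livers the count of 3 was 0 without the filter, 1 with a stricter filter and 0 to 4 without 1 liver, with medians of -0.53 to -0.20 and, for GTPases, -0.44 to 0.12. For genotype under CDDO-Im the count of 2 was 0 without the filter, 0 with only the groups compared and 0 to 3 without 1 liver, with medians of -0.53 to -0.35 and -0.74 to -0.26. With CDDO-Im in CKO livers the medians without 1 liver were -0.02 to 0.14 and 0.22 to 0.55. The interaction count was 0 to 1 without 1 liver. Without the filter more genes were adjusted for, and the fits without 1 liver or with only the groups compared had fewer samples. What these differences contributed to the counts was not tested. With the replicate number as a block (replicate block), 0 members were called in each comparison. The GTPase median under vehicle was then -0.71, and 21 genes were called lower in place of 272. Of 12 same-numbered pairs 3 correlated above 0.1, which cannot show whether these livers shared a batch. Median centring moved the split of genes changed by CDDO-Im in WT livers from 157 higher and 147 lower to 228 and 121, with 3 members called in both. Over all genes, those called lower with deletion under vehicle numbered 95 without the filter, 87 with only the groups compared and 126 to 274 without 1 liver. For CDDO-Im in WT livers the 147 called lower became 50, 34 and 39 to 153, and for genotype under CDDO-Im the 66 became 10, 26 and 11 to 75. With the replicate block 39 and 20 were called lower. Chosen after seeing the data, the same alternatives were run for the other pathway genes: the 6 called with deletion under vehicle numbered 0 with the replicate block and 3 without the filter or with only the groups compared, and the 4 called under CDDO-Im numbered 0, 1 and 1. Of 9 members with at least 2 probe sets tested, none had opposite signs under vehicle, the call differed for Ifi35 and Trim30a, and Samhd1 had opposite signs for CDDO-Im in WT livers. Signals near background (Ifit2, Oasl2, Gbp2 and Cxcl10) limit what can be said of those genes.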
